A study of Mus musculus with 4 samples.

Results

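Endothelial and sinusoid genes were examined in the bone marrow of C57BL/6N mice 8 h after an intraperitoneal injection of 50 µg lipopolysaccharide (LPS), a mixture from Escherichia coli K12 and Salmonella minnesota, against mice given phosphate-buffered saline (PBS). The genes were a list of 40 known genes of blood vessel cells, given by name with earlier results of these data known, of which 39 were measured by a probe set of their own among 19938 named genes. Tspan7 was the listed gene with no such probe set. The LPS group held replicates 1 and 2 and the PBS group replicates 1 and 3, each hybridised to 1 Affymetrix Mouse Gene ST array with total RNA of bone marrow cells. Strain, organ and time after injection were the same in both groups, and the sample labels give no age, no sex and no genetic modification. Neither do they say whether a sample came from 1 mouse or from a pool, so that the spread within a group may be technical. In RNA of whole marrow, fewer cells of a type cannot be told apart from less RNA of a gene per cell.

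Bone marrow is drained by sinusoids, thin-walled vessels whose endothelial cells express the VEGF receptors Kdr and Flt4, the scavenger receptor Stab2 and the angiopoietin receptor Tek, and through which new blood cells leave the marrow. Endothelial cells are joined by VE-cadherin, the product of Cdh5, and they control vessel tone, clotting and the passage of leukocytes through secreted peptides and surface proteins. Exposure to LPS is known to activate endothelium, which then displays adhesion molecules and loses anticoagulant proteins. Several of the listed genes are also used by other marrow cells. Vwf and Pecam1 are expressed in megakaryocytes and platelets, Erg and Esam in blood stem cells, and Mcam in stromal cells.

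Values are log2 expression values made by RMA, on which a difference of 1 is a factor of 2. Mean levels of 27 of the 39 genes (69.2%) exceeded the median gene, and Tal2 was the 1 gene below the lower quartile of all genes on all 4 arrays (5.43 and 5.72 in LPS, 5.50 and 5.43 in PBS). Of the 10 genes set down as defining markers of endothelium (7 of them in the list), 0 lay below that quartile on all 4 arrays. Values of different probe sets are not comparable as RNA levels and no background was estimated, so this places the signals on the arrays and does not show that an RNA was present. Over all genes, the arrays correlated at r = 0.997 within LPS and 0.995 within PBS, and the median log2 value lay between 8.01 and 8.03. Every measured gene of the list had exactly 1 probe set.

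After LPS, 2 of the 39 genes were higher and 3 were lower at a Benjamini-Hochberg adjusted p under 0.05 in a limma fit over all genes. These 5 genes make 12.8% of the list, against 3.66% of all genes past the same threshold. By direction, 5.13% of the list were higher, against 2.39% of all genes, and 7.69% were lower, against 1.27%. The genes that rose were Edn1, which encodes the vasoconstrictor peptide endothelin-1, and Ecscr, an endothelial surface protein. Those that fell were Ptprb, the endothelial tyrosine phosphatase VE-PTP, Flt4, the receptor of VEGF-C, and Bmp6, a bone morphogenetic protein secreted by sinusoidal endothelium of the liver. The median log2 fold change of the list was 0.08, against -0.01 over all genes, with 25 positive and 14 negative values between -0.75 and 0.92. The median was 0.027 without PBS replicate 3, where 4 genes were higher (Emcn and Nrp2 in addition), and 0.12 without PBS replicate 1. With every probe set of the array in the fit, Edn1 passed and the other 4 genes did not (adjusted p = 0.0679 to 0.16), and a model with no moderation of variances called 0 of all genes, with 5 listed genes at an unadjusted p under 0.05. No test of the list as a whole was made.

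**Figure D1:**
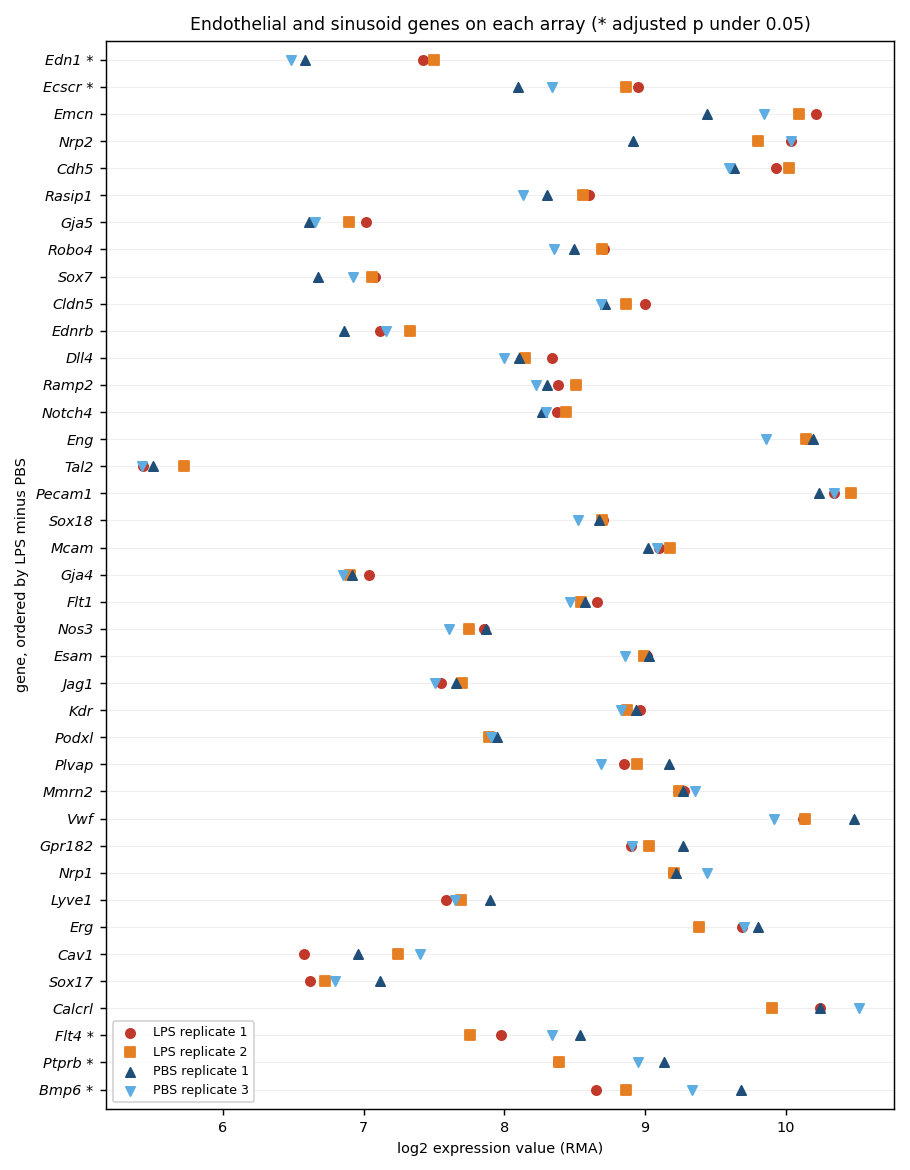
Log2 expression value (x axis) of the 39 measured endothelial and sinusoid genes (rows, ordered by LPS minus PBS) on each of the 4 arrays, with 1 marker per array. Edn1 and Ecscr at the top and Flt4, Ptprb and Bmp6 at the bottom carry an asterisk for an adjusted p under 0.05, and both LPS arrays of each lie apart from both PBS arrays.

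Most of the list changed little or by amounts the 4 arrays could not resolve. Among the 34 genes that did not pass, log2 fold changes ran from -0.31 to 0.52. Their 95% intervals, not adjusted for the number of genes, lay within 1 log2 unit of 0 for 33 of them and within 0.5 for 24. Nrp2 was the gene with the wider interval. The groups did not overlap for 14 genes of the list with LPS above PBS (20.4% of all genes did so) and for 7 genes with LPS below PBS (24.5% of all genes). In either direction this was 44.9% of all genes. At an unadjusted p under 0.05, 9 genes of the list were higher and 3 lower, which is 30.8% of the list against 15.8% of all genes.

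Vasoactive and secreted signals held the largest change in each direction. Edn1 had log2 values of 7.42 and 7.50 in LPS replicates 1 and 2, against 6.58 and 6.49 in PBS replicates 1 and 3. The groups were apart by more than the gap within either of them. The group means were 7.46 ± 0.05 in LPS and 6.54 ± 0.07 in PBS (SD, n = 2 each), and the rise was 0.92 log2 (SE 0.0913, 95% interval 0.71 to 1.14), a 1.90-fold change with a limma adjusted p of 0.00137. Its PBS values lay below the lower quartile of genes, which was between 6.66 and 6.72 on the 4 arrays, and with no background estimate the size of the fold is uncertain. Edn1 passed with any 1 array left out, with changes of 0.88 to 0.97 and adjusted p-values of 0.000461 to 0.00275.

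The promoters of Edn1, Bmp6 and Flt4 are shown because these are the changed genes for which RefSeq sequence was at hand and could be printed. Each window holds 250 bases before and 50 after an annotated transcription start in GRCm38.p6, read 5′ to 3′ on the + strand of the gene. The positions are chr13:42301226-42301525 for Edn1, chr13:38345466-38345765 for Bmp6 and chr11:49609429-49609728 for Flt4. Capitals mark matches on either strand to an AP-1 motif (TGACTNA) or a GATA motif (AGATAA, or TTATCT on the other strand), and the NF-kappaB consensus was searched as well.
Edn1: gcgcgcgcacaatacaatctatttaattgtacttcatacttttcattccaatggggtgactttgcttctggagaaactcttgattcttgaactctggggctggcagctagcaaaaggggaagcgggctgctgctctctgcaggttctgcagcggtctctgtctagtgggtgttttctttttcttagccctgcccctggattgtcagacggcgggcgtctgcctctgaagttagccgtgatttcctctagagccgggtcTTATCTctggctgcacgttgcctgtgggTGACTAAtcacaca
Bmp6: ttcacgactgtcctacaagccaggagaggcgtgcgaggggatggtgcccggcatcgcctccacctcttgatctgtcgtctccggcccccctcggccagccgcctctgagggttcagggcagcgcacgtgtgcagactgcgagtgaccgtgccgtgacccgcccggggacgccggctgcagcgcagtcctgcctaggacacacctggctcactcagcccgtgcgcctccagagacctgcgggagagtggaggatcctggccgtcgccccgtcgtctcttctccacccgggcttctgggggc
Flt4: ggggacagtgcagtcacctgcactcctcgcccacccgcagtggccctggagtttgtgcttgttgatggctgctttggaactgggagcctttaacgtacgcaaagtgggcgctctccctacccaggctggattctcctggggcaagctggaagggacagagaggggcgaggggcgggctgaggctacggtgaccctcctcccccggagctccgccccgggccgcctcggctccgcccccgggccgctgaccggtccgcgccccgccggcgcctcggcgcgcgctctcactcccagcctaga
The Edn1 window held 1 AP-1 match, TGACTAA from base 287 of the window, and 1 GATA match, TTATCT from base 259. Both lay after the annotated start, from base 37 (AP-1) and base 9 (GATA), and not in the 250 bases before it. In human endothelial cells AP-1 and GATA factors are known to act on the promoter of this gene. The Bmp6 and Flt4 windows held 0 matches to any of the 3 motifs. These letters are common. Over all 32851 windows, 13.9% held the AP-1 motif, 11.2% the GATA motif and 8.46% the NF-kappaB consensus.

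Of the listed genes, 24 had 27 windows, of which 4 (14.8%) held the AP-1 motif, 2 (7.41%) the GATA motif and 8 (29.6%) the NF-kappaB consensus. The 8 windows with the NF-kappaB consensus belonged to Dll4, Ednrb, Flt1, Kdr, Notch4, Rasip1, Tal2 and Tspan7, of which 0 passed the expression test and Tspan7 was not measured. The motifs do not overlap one another in the windows shown. The median GC content was 60.7% in the windows of the list and 52.7% in all windows, and its part in the motif shares was not tested.

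Endothelin acts through Ednrb on endothelial cells. Ednrb stood at 7.12 and 7.33 in LPS and at 6.86 and 7.16 in PBS. The groups overlapped, and the change of 0.21 (95% interval -0.08 to 0.51, adjusted p = 0.493) did not pass. The endothelial nitric oxide synthase gene Nos3, whose product relaxes vessels, had 7.86 and 7.75 in LPS and 7.87 and 7.61 in PBS, a change of 0.06 (95% interval -0.20 to 0.32, adjusted p = 0.875).

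Bmp6 stood at 8.65 and 8.86 in LPS replicates 1 and 2, and at 9.68 and 9.33 in PBS replicates 1 and 3. Both LPS arrays were lower than both PBS arrays, and the PBS arrays differed from each other by 0.35. Means were 8.76 ± 0.15 in LPS and 9.51 ± 0.25 in PBS (SD, n = 2 each). Bmp6 fell by 0.75 log2 (SE 0.136, 95% interval -1.07 to -0.44), to 0.594 of its PBS level (adjusted p = 0.0262). Without LPS replicate 1 the change was -0.64 and did not pass (adjusted p = 0.0527), and over the alternatives with moderated variances the adjusted p ran from 0.0012 to 0.135.

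Around BMP signalling, 19 genes for ligands, receptors and targets of the pathway were all measured, with a median of 0.05. Of these, 2 rose and 0 fell, where 2.39% of all genes rose and 1.27% fell. The 2 were Id1 (8.78 and 8.77 in LPS, 8.27 and 8.40 in PBS, change 0.44, adjusted p = 0.0448), a transcriptional target of BMP signals, and Smad1 (8.63 and 8.73 in LPS, 8.21 and 8.27 in PBS, change 0.44, adjusted p = 0.0447), which carries the signal to the nucleus. Both passed with PBS replicate 3 left out and not with any other array left out. Their adjusted p-values there were 0.0275 to 0.156 for Id1 and 0.0398 to 0.227 for Smad1.

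The receptor for adrenomedullin, a peptide that tightens endothelial barriers, consists of the receptor Calcrl and its partner Ramp2. Calcrl had 10.24 and 9.90 in LPS and 10.25 and 10.52 in PBS, a change of -0.31 (95% interval -0.64 to 0.02, adjusted p = 0.346). Ramp2 had 8.38 and 8.51 in LPS and 8.30 and 8.22 in PBS, a change of 0.18 (95% interval -0.03 to 0.40, adjusted p = 0.406). Neither subunit passed. Taken within each array, the log2 ratio of Calcrl to Ramp2 was 1.86 and 1.39 in LPS, against 1.95 and 2.29 in PBS, a description of a pair picked after its values were seen. Among 10 measured genes of adrenomedullin and endothelin peptides, receptors and enzymes, the ligand gene Adm rose (7.76 and 7.91 in LPS, 7.08 and 7.19 in PBS, change 0.70, adjusted p = 0.00814). Ramp1, the receptor partner for calcitonin gene-related peptide, fell (8.67 and 8.41 in LPS, 9.14 and 9.17 in PBS, change -0.62, adjusted p = 0.0249, and 0.101 without LPS replicate 2). The median of these 10 genes was 0.14, and 3.66% of all genes passed in either direction.

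Gpr182, an atypical chemokine receptor of sinusoidal endothelium, stood at 8.90 and 9.03 in LPS and at 9.27 and 8.91 in PBS, and the groups overlapped (change -0.13, adjusted p = 0.741). Vwf, which encodes the platelet-binding protein of endothelial and megakaryocyte granules, had 10.13 and 10.13 in LPS and 10.49 and 9.92 in PBS. Both LPS values of Vwf lay between the PBS values, and its change of -0.07 did not pass (95% interval -0.47 to 0.32, adjusted p = 0.911). Without PBS replicate 1, the changes of Vwf (0.21) and Gpr182 (0.05) had the opposite sign.

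Among VEGF receptors, Flt4 was lower after LPS and the other receptors did not pass. Flt4 had log2 values of 7.98 and 7.76 in LPS, against 8.54 and 8.34 in PBS, so the groups did not overlap. It fell by 0.57 log2 (SE 0.114, 95% interval -0.84 to -0.30, adjusted p = 0.0398), with means of 7.87 ± 0.15 in LPS and 8.44 ± 0.14 in PBS (SD, n = 2 each). The call was lost without LPS replicate 2 (change -0.46, adjusted p = 0.159) and without PBS replicate 1 (-0.47, adjusted p = 0.0716), and over the alternatives with moderated variances the adjusted p ran from 0.0112 to 0.16.

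Kdr, the main signalling receptor of VEGF-A, had 8.97 and 8.87 in LPS and 8.94 and 8.83 in PBS. The change of Kdr was 0.04, with a 95% interval from -0.18 to 0.25 that leaves out the fall of Flt4. Flt1, a high-affinity receptor that also acts as a decoy for VEGF-A, changed by 0.08 (95% interval -0.14 to 0.30). Within each array, the log2 ratio of Flt4 to Kdr was -0.99 and -1.11 in LPS, against -0.40 and -0.49 in PBS, again a pair picked after its values were seen and given with no test.

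The neuropilins are co-receptors for VEGF and semaphorins. Nrp1 changed by -0.13 (adjusted p = 0.626). Nrp2 had 10.04 and 9.80 in LPS, and 8.91 and 10.04 in PBS replicates 1 and 3. PBS replicate 1 lay 1.12 log2 units below PBS replicate 3, the widest gap between PBS arrays in the list, and the change of 0.44 (95% interval -0.27 to 1.16) did not pass. Without PBS replicate 3 it was 1.00 (adjusted p = 0.000769), and without PBS replicate 1 it was -0.12 (adjusted p = 0.771). Semaphorins, their plexin receptors and the Slit and Robo genes held 0 calls among 18, where 3.66% of all genes passed in either direction. Their median was -0.02. Plxnd1 and Plxna4, the members with the highest mean log2 signal, changed by -0.06 and 0.02.

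On the ligand side, 1 of 15 VEGF ligands and signalling genes passed, where 3.66% of all genes passed in either direction. Vegfa, the main vessel growth factor, had 9.70 and 9.58 in LPS and 9.20 and 9.23 in PBS (change 0.43, adjusted p = 0.0495). Its call was lost with each of the 4 arrays left out, with adjusted p-values of 0.0579 to 0.253. The median of the 15 genes was -0.12.

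**Figure D2:**
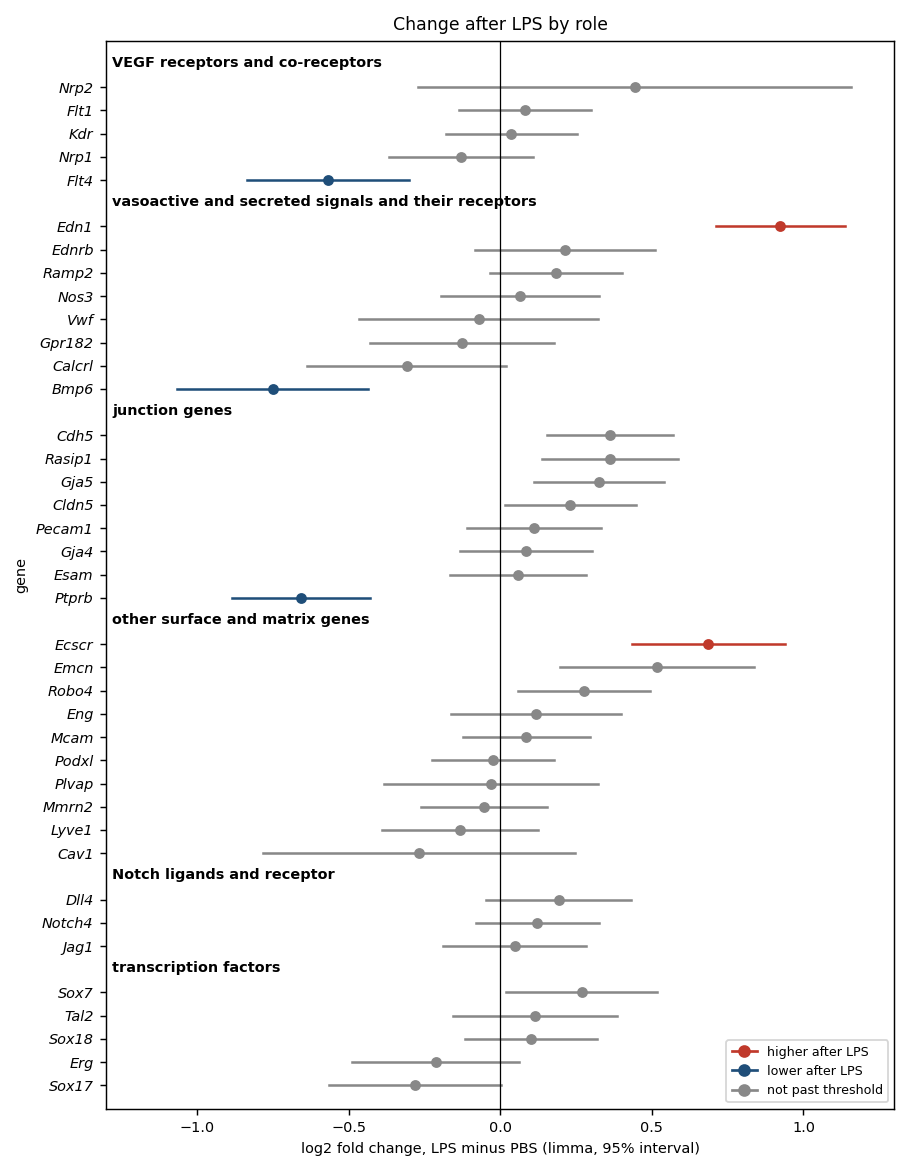
Log2 fold change after LPS (x axis, LPS minus PBS, points) with its 95% interval from limma (lines) for the 39 measured genes (y axis) grouped by role. Edn1 (0.92) and Ecscr (0.69) lie to the right, Bmp6 (-0.75), Ptprb (-0.66) and Flt4 (-0.57) to the left, and the 7 junction genes with positive values have grey lines, since none of them passed.

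Of 8 junction genes, 1 fell and 0 rose, where 3.66% of all genes passed in either direction. The other 7 had positive values and did not pass, and the median of the 8 was 0.17, against -0.01 over all genes. The gene that fell was Ptprb, whose phosphatase acts on the Tie2 receptor and on VE-cadherin. It had 8.38 and 8.39 in LPS, against 9.13 and 8.95 in PBS. The LPS arrays differed by 0.00543 log2, and both lay below both PBS arrays. Ptprb fell by 0.66 (SE 0.0979, 95% interval -0.89 to -0.43, adjusted p = 0.0107), to means of 8.38 ± 0.0038 in LPS against 9.04 ± 0.13 in PBS (SD, n = 2 each). It passed with any 1 array left out (adjusted p = 0.00253 to 0.0272) and did not pass with every probe set of the array in the fit (adjusted p = 0.0679).

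Cdh5, the VE-cadherin gene that is the most specific endothelial marker of the list, had 9.93 and 10.02 in LPS and 9.63 and 9.59 in PBS. Its LPS arrays lay above its PBS arrays, and the change of 0.36 (95% interval 0.16 to 0.57) missed the threshold (adjusted p = 0.0819). Rasip1, a regulator of junctions and vessel lumens, had 8.60 and 8.56 in LPS and 8.30 and 8.14 in PBS, a change of 0.36 (adjusted p = 0.105). For Gja5, a gap junction gene of arterial endothelium, the values were 7.02 and 6.90 in LPS and 6.61 and 6.65 in PBS, a change of 0.33 (adjusted p = 0.123). These 3 genes were higher on both LPS arrays, with unadjusted p-values of 0.00402, 0.00612 and 0.00809. Both PBS values of Gja5 lay below the lower quartile of genes, and with no background estimate the size of its change is uncertain.

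The tight junction gene Cldn5 changed by 0.23 (8.996 and 8.86 in LPS, 8.71 and 8.69 in PBS, adjusted p = 0.278). Pecam1, an adhesion molecule of endothelium, leukocytes and platelets, had 10.34 and 10.46 in LPS and 10.24 and 10.34 in PBS, with an interval of -0.11 to 0.33. Esam changed by 0.06 and the gap junction gene Gja4 by 0.08. Of 18 measured partners of these genes, such as catenins, zonula and caveola proteins, Jup fell and 0 rose, with a median of 0.04. Over all genes, 1.27% fell and 2.39% rose. Jup, which encodes plakoglobin, a link between cadherins and the cytoskeleton, had 8.39 and 8.37 in LPS, against 9.13 and 8.91 in PBS (change -0.64, adjusted p = 0.0158).

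Among 10 measured genes of other surface and matrix proteins, 1 rose and 0 fell, where 2.39% of all genes rose and 1.27% fell. Ecscr, whose product modulates endothelial migration and survival, had 8.95 and 8.86 in LPS, against 8.10 and 8.34 in PBS. Its groups did not overlap, with means of 8.91 ± 0.06 in LPS and 8.22 ± 0.17 in PBS (SD, n = 2 each). Ecscr rose by 0.69 (SE 0.108, 95% interval 0.43 to 0.94, adjusted p = 0.0142), a 1.61-fold change, and passed with any 1 array left out (adjusted p = 0.00172 to 0.0331) but not with every probe set in the fit (0.0858).

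Emcn, the sialomucin endomucin of sinusoids and veins, had 10.22 and 10.10 in LPS, and 9.44 and 9.84 in PBS. Both LPS arrays of Emcn were higher, and the change of 0.52 (95% interval 0.20 to 0.84) did not pass (adjusted p = 0.106). With PBS replicate 3 left out it was 0.72 and passed (adjusted p = 0.00435), and with PBS replicate 1 left out it was 0.32 (adjusted p = 0.22). Robo4, an endothelial guidance receptor that stabilises vessels, had 8.71 and 8.69 in LPS and 8.50 and 8.35 in PBS, a change of 0.28 (adjusted p = 0.198).

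Plvap, which forms the diaphragms of endothelial fenestrae, stood at 8.85 and 8.94 in LPS, between PBS values of 9.17 and 8.69. Its change was -0.03 (95% interval -0.38 to 0.32). Lyve1, a hyaluronan receptor of lymphatic and sinusoidal endothelium and of some macrophages, changed by -0.13, and the caveolin gene Cav1 by -0.27, with an interval of -0.78 to 0.25. For Eng, Mcam, Podxl and Mmrn2 the changes were 0.12, 0.09, -0.02 and -0.05. None of these 7 genes passed, with adjusted p-values of at least 0.648.

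The 3 Notch genes of the list, which govern arterial identity and sprouting, all had small positive values and did not pass. Dll4, the Notch ligand of arterial and tip cells, had 8.34 and 8.14 in LPS and 8.10 and 8.00 in PBS, a change of 0.19 (95% interval -0.05 to 0.43). The receptor gene Notch4 changed by 0.12 and the ligand gene Jag1 by 0.05. Among 14 other Notch pathway genes 0 passed, where 3.66% of all genes passed in either direction, and their median was 0.00. Notch2 and Notch1, with the highest mean log2 signal among them, changed by -0.25 and 0.04.

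Of the 5 transcription factor genes, 0 passed, where 3.66% of all genes passed in either direction. Sox7 (0.27) and Sox18 (0.10) had positive values and Sox17 (-0.28) a negative one, although all 3 belong to the same Sox subfamily that specifies endothelium. Sox7 had 7.08 and 7.06 in LPS and 6.68 and 6.93 in PBS, and Sox17 had 6.62 and 6.73 in LPS and 7.12 and 6.79 in PBS. Their groups did not overlap, as for 44.9% of all genes, with adjusted p-values of 0.276 for Sox7 and 0.32 for Sox17. PBS replicate 1 of Sox7 and LPS replicate 1 of Sox17 lay below the lower quartile of genes. With no background estimate, the sizes of these changes are uncertain. Erg, an ETS factor that maintains endothelial identity and is also expressed in blood stem cells, changed by -0.21 (95% interval -0.49 to 0.06). Tal2, a factor known from T-cell leukaemia and the embryonic midbrain, lay below the lower quartile of genes on all 4 arrays, as given above.

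Other genes of vessel identity and activation, taken from lists of endothelial genes outside the 40, were examined beside it. Of 32 genes of vessel identity, 2 rose and 6 fell, with a median of -0.15, where 2.39% of all genes rose and 1.27% fell. The largest rise was that of Procr, the receptor of the anticoagulant protein C, with 8.88 and 8.75 in LPS, against 7.25 and 7.27 in PBS (change 1.55, adjusted p = 8.94e-05). Egfl7, a matrix protein secreted by endothelium, rose by 0.59 (9.75 and 9.67 in LPS, 9.07 and 9.17 in PBS, adjusted p = 0.014, and 0.0539 without LPS replicate 1).

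Stab2, the sinusoidal scavenger receptor for hyaluronan, had 8.93 and 8.96 in LPS, against 10.22 and 10.18 in PBS. It fell by 1.26 log2 (SE 0.0869, 95% interval -1.46 to -1.05, adjusted p = 0.000206), to 0.419 of its PBS level. Thbd, which encodes the anticoagulant receptor thrombomodulin, fell by 1.21 (8.14 and 8.18 in LPS, 9.36 and 9.39 in PBS, adjusted p = 0.000227). Tek, the Tie2 receptor on which Ptprb acts, fell by 0.89 (8.23 and 8.10 in LPS, 8.93 and 9.19 in PBS, adjusted p = 0.00489). The remaining genes that fell, named after their values were seen, were the anticoagulant gene Tfpi (-0.87), the endothelial lectin gene Clec14a (-0.66) and the chemokine decoy receptor gene Ackr1 (-0.44). Ackr1 passed without PBS replicate 3 and with no other array left out (adjusted p = 0.043 to 0.148).

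Among 13 measured genes of leukocyte adhesion and endothelial activation, 4 rose and 2 fell, with a median of 0.03. Over all genes, 2.39% rose and 1.27% fell. The chemokine gene Ccl2 (10.66 and 11.10 in LPS, 7.06 and 7.33 in PBS, change 3.69), the adhesion receptor gene Icam1 (change 1.48) and the Tie2 ligand gene Angpt2 (change 0.91) rose most, and F11r, a junctional adhesion molecule named after its value was seen, rose by 0.71. Sele, which encodes the endothelial selectin E-selectin, fell. It had 7.71 and 7.89 in LPS, against 9.02 and 8.73 in PBS (change -1.07, SE 0.123, adjusted p = 0.00289). Vcam1, an adhesion molecule of endothelium, stroma and marrow macrophages, fell by 0.79 (means of 10.96 in LPS and 11.75 in PBS, adjusted p = 0.00309). Together, the lists of vessel identity, adhesion, VEGF, Notch, adrenomedullin and endothelin, semaphorin and Slit, BMP and junction partners held 138 measured genes. Of these, 10 rose and 10 fell, where 2.39% of all genes rose and 1.27% fell, and the median of the 138 was 0.01. Rises numbered 6 without LPS replicate 1 and 18 without PBS replicate 3, and falls 16 without PBS replicate 1. Many of them are expressed outside endothelium.

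**Figure D3:**
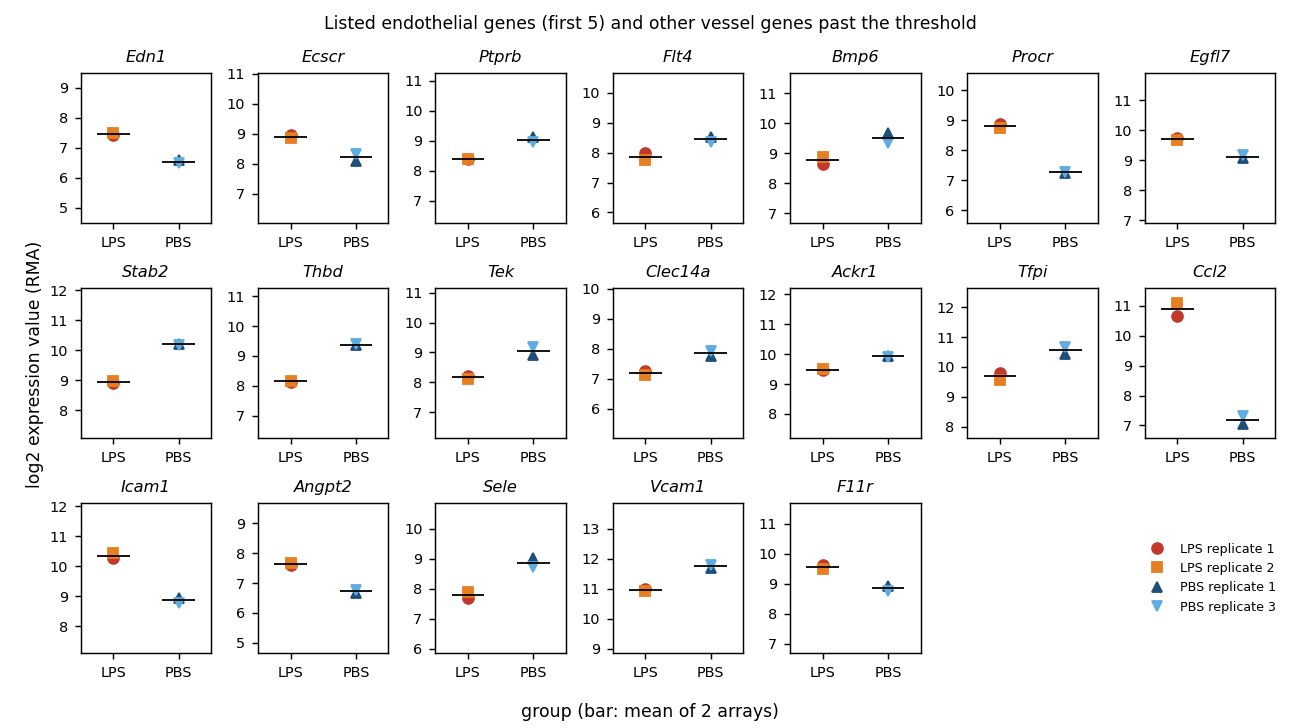
Log2 expression value (y axis, the same span of 5 log2 units in every panel) in LPS and PBS (x axis) for the 5 changed genes of the list and for other vessel identity and adhesion genes past the threshold, with 1 marker per array and a bar at the mean of 2 arrays. Procr, Ccl2 and Icam1 stand higher in LPS, and Stab2, Thbd and Sele stand lower.

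The summed level of the list differed little between the groups. Summed over the 39 genes on a linear scale, the level was 18913 and 18494 in LPS and 18396 and 18044 in PBS, a ratio of group means of 1.03. Genes with bright probe sets weigh most in such a sum, among them Pecam1 and Vwf, which megakaryocytes also express. The 10 defining endothelial markers summed to 6368 and 6444 in LPS and 6989 and 6884 in PBS, a ratio of 0.923. They had 0 rises, 3 falls (Flt4, Tek and Stab2) and a median change of -0.08, where 2.39% of all genes rose and 1.27% fell. Megakaryocyte markers, which share Vwf-expressing cells with the list, had 0 of 10 past the threshold, with sums of 39902 and 39830 in LPS and 41250 and 38785 in PBS. Ppbp and Pf4, platelet chemokine genes, changed by -0.02 and 0.04. Stem and progenitor markers had 0 of 13 past the threshold and a median of -0.04, and Myb and Gfi1b changed by -0.27 and -0.17.

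Of 14 macrophage markers, some of which are also sinusoidal, 2 rose, 5 fell and 7 did not pass. Over all genes, 2.39% rose and 1.27% fell. The median change of the 14 was -0.21, with sums of 17588 and 16461 in LPS and 21376 and 21659 in PBS. Spic (1.49) and Adgre1 (0.56) rose and Cd163 (-2.41), Slc40a1 (-1.89), Mrc1 (-1.72), Vcam1 (-0.79) and Mertk (-0.54) fell, the last 2 named after their values were seen. Both LPS values of Cd163 (6.42 and 6.57) lay below the lower quartile of genes, so the size of its fall is uncertain. The call of Adgre1 was lost with LPS replicate 1 (adjusted p = 0.0912) or PBS replicate 1 (0.055) left out, and that of Mertk with LPS replicate 2 left out (0.158). Whether macrophage RNA has a part in the falls of Stab2, Vcam1 or the listed genes was not tested.

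Further lineages gave these counts, where 2.39% of all genes rose and 1.27% fell. B-cell markers had 0 rises and 3 falls among 11, namely Fcer2a (-1.61), Cr2 (-0.75) and Dntt (-0.55, adjusted p = 0.0946 without LPS replicate 2), with sums of 18013 and 23494 in LPS and 23799 and 24997 in PBS. Dendritic markers had 1 rise, Bst2 (1.60), and 1 fall, Cd209a (-2.02), among 11. Neutrophil markers had 1 fall among 12, Retnlg (-0.76), and erythroid markers had 0 of 10 past the threshold, with changes of -0.09 for Car2 and -0.18 for Slc4a1. Values were negative for 11 of 11 B-cell, 8 of 11 dendritic, 11 of 12 neutrophil and 9 of 10 erythroid markers. The medians of these 4 lists were -0.30, -0.06, -0.22 and -0.22 in that order, against -0.01 over all genes.

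Part of the stromal markers differed between the PBS arrays. The 15 markers of mesenchymal stroma summed to 28055 and 26664 in LPS, and to 18598 in PBS replicate 1 and 35833 in PBS replicate 3, a factor of 1.93 between the PBS samples. Bright collagen and matrix genes carried this sum, with log2 values of 11.99 in PBS replicate 1 and 13.33 in PBS replicate 3 for Col1a1 and of 10.96 and 12.67 for Dcn, genes named after their values were seen. Other markers hardly differed between these arrays, with 11.64 and 11.59 for Cxcl12 and 9.42 and 9.44 for Pdgfrb, likewise named afterwards. The median deviation of the 15 genes from their means over the 4 arrays was -0.063 in PBS replicate 1 and 0.287 in PBS replicate 3. Of these markers 0 rose and 2 fell, Lepr (-0.59) and Grem1 (-0.50), around a median of -0.05. Over all genes, 2.39% rose and 1.27% fell. The call of Lepr was lost with LPS replicate 1 left out (adjusted p = 0.0616), and that of Grem1 with LPS replicate 1 (0.133) or LPS replicate 2 (0.0532) left out. Nrp2 and Emcn were likewise lower in PBS replicate 1 than in PBS replicate 3, while Vwf, Plvap, Gpr182 and Bmp6 were higher in PBS replicate 1. Within PBS, 10 of the 39 genes differed by over 0.3 log2 between the arrays, and within LPS 3 did. The median gap was 0.109 between the LPS arrays and 0.166 between the PBS arrays, against 0.0954 and 0.112 over all genes. The part of stromal RNA in these gaps was not tested.

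**Figure D4:**
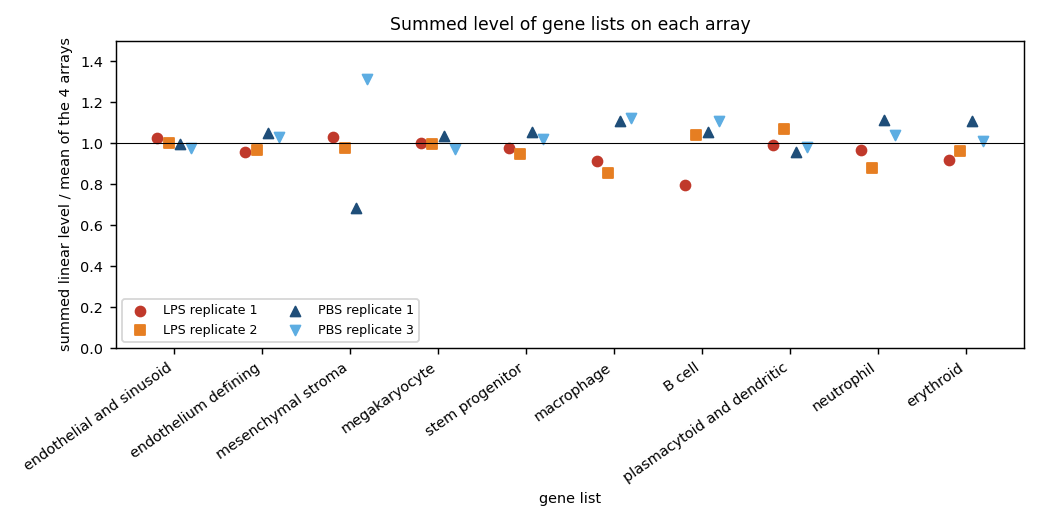
Summed linear level of each gene list on each of the 4 arrays, divided by the mean of the 4 arrays (y axis), for the endothelial and sinusoid genes and for marker lists of marrow cell types (x axis). The endothelial sums lie close to 1 on every array, and the stromal sum is lowest in PBS replicate 1 (18598) and highest in PBS replicate 3 (35833).

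**Figure D5:**
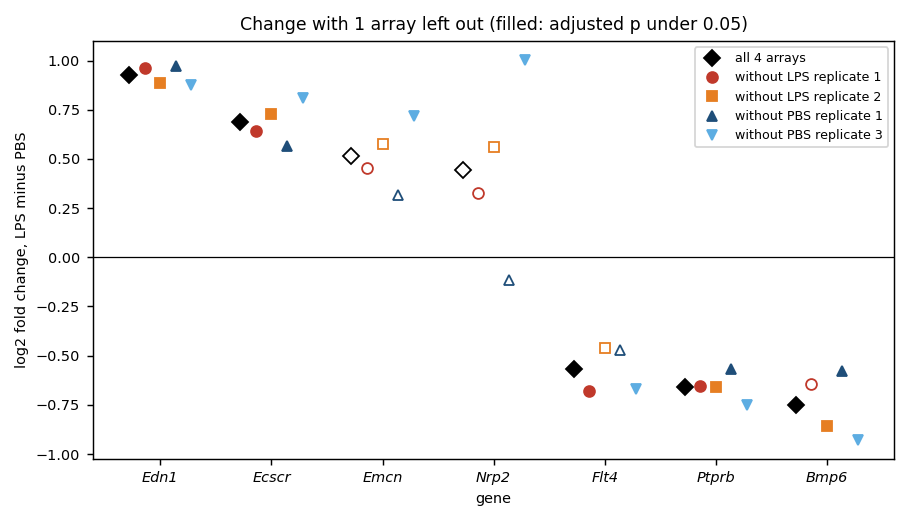
Log2 fold change after LPS (y axis) of 7 genes (x axis) with all 4 arrays and with each array left out in turn, with filled markers for an adjusted p under 0.05. Edn1, Ecscr and Ptprb stay filled throughout, Flt4 and Bmp6 lose the call with 2 and 1 of the arrays left out, and Nrp2 runs from -0.12 to 1.00.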

How the data were processed

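Total RNA of 4 bone marrow samples was hybridised to Affymetrix Mouse Gene ST arrays. The deposited log2 values per probe set were made by the authors with RMA, per the submitters' processing notes. Neither a version of RMA nor its probe annotation is named in the labels, and the log2 scale was read from the values (2.76 to 14.5). Of 35556 probe sets, 21789 had exactly 1 gene symbol in the platform annotation, 1621 had several and 12146 had none. The probe set with the highest mean stood for each of 19938 genes.

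LPS and PBS were compared by a two-sided moderated test (limma 3.58.1 under R 4.3.3, functions lmFit and eBayes, 4 arrays, no covariate, 2 residual and 5.59 prior degrees of freedom) and Benjamini-Hochberg adjustment over all genes. The fit was checked on simulated data. Intervals are limma's 95% intervals, and the number of arrays limits the precision. With 2 arrays a group, the smallest two-sided p of an exact permutation test is 0.333. The members and gene lists were chosen with earlier results of these data known. All 40 listed genes are accounted for. Of every other list, up to 3 rising and 3 falling genes of largest size past the threshold were named, or the 2 with the highest mean where none passed. Promoters are RefSeq's (GRCm38.p6), matched by symbol. Plots were made in matplotlib 3.10.9 (Python 3.11.15). Alternatives covered the probe sets in the fit, the variance prior, a filter on dim genes, scaling, the threshold and leaving out each array.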

Additional observations from a re-analysis of the deposited data

How the results depend on the processing

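Of 456 recomputed values of single listed genes, 423 kept their direction and side of the threshold, 16 lost the call, 3 gained it and 14 changed sign, all 14 with 1 array left out. In these counts, vessel genes are the 138 genes outside the list given above, with BMP, Notch, semaphorin and junction partners among them. Cell type markers are 98 measured markers outside the list, of which 3 rose and 14 fell. Some, such as Stab2, Tek and Vcam1, count as vessel genes too. With every probe set in the fit, 1 listed gene was higher (Edn1) and 0 lower, with 10 of 39 at an unadjusted p under 0.05. There, 4 and 5 of the other vessel genes were higher and lower, 8 cell type markers were lower, and 63 probe sets were lower against 254 genes. More features were tested there, and the variance prior had 3.35 degrees of freedom, against 5.59 in the main fit. A linear model with no moderation of variances called 0 genes of any list or of all genes in either direction, with 5 listed genes at an unadjusted p under 0.05. Keeping only genes above the median on at least 2 arrays left 27 listed genes and 1 higher, since Edn1 was removed. At an adjusted p under 0.01, 1 listed gene was higher and 0 lower, 5 and 6 vessel genes and 8 lower markers remained past it, and 286 genes were higher and 58 lower. At 0.10, 478 genes were lower and Cdh5 joined the listed genes. With 1 array left out, listed genes numbered 2 to 4 higher and 2 to 3 lower and their median ran from 0.027 to 0.12. Vessel genes outside the list ran from 6 to 18 higher and 8 to 16 lower, cell type markers from 2 to 9 higher and 12 to 19 lower, and all genes from 385 to 696 higher and 127 to 423 lower. Counts of higher listed genes moved without PBS replicate 3 (4), of higher vessel genes without LPS replicate 1 (6) and PBS replicate 3 (18), of lower vessel genes without PBS replicate 1 (16) and of higher markers without PBS replicate 3 (9). Lower genes numbered 127 without LPS replicate 2, 382 without PBS replicate 1 and 423 without PBS replicate 3. Among listed genes, changes whose sign turned ran from -0.017 to 0.089 for Kdr, -0.27 to 0.21 for Plvap and -0.60 to 0.063 for Cav1. They also ran from -0.032 to 0.26 for Tal2, -0.027 to 0.12 for Jag1 and -0.36 to 0.21 for Vwf. The range was -0.12 to 1.004 for Nrp2, -0.30 to 0.054 for Gpr182 and -0.047 to 0.28 for Eng. Esam ran from -0.028 to 0.14 and Nos3 from -0.066 to 0.19. A gene could turn with more than 1 array. Named genes outside the list, not counted among the 14, turned as well. These were Plxna4 (-0.13 to 0.17), Pf4 (-0.050 to 0.13), Plxnd1 (-0.12 to 0.00055) and Notch1 (-0.088 to 0.17). Causes were not tested. No paired analysis was made because the labels give no pairing of LPS and PBS samples. The array count limits precision, and background was not estimated for single probe sets.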
